A study of Mus musculus with 22 samples.

Results

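Collagens, laminins, insulin-like growth factor binding proteins and a set of other stromal matrix genes were followed in mouse B cells through Myc-driven lymphomagenesis. The genes were taken by symbol, from a list made with earlier results of these data known. It held every collagen chain, laminin chain and Igfbp gene, together with Sparc, Bgn, Dcn, Lum, Fn1, Mgp, Fbln2, Timp3, Cxcl12, Nid1 and Nid2. The array held 109 probe sets annotated to one of these symbols alone, out of 22690 probe sets in all. They stood for 64 genes, of which 36 were collagen chains, 10 laminin chains, 7 Igfbp genes and 11 other genes. For 33 of the 64 genes no probe set exceeded a log2 value of 4, close to the floor of these arrays, on any of the 22 arrays. A further 7 genes exceeded it on 1 to 3 arrays only, and the remaining 24 genes passed the filter for testing, log2 above 4 on at least 4 arrays. The genes that passed were 12 collagen chains, 2 laminin chains, 3 Igfbp genes and 7 of the others.

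RNA of each sample was hybridised to 1 Affymetrix MOE430A array. There were 4 samples of wild type cells, 5 of premalignant cells and 13 of malignant cells, all on a C57Bl/6 background. Premalignant and malignant samples carried the Eμ-Myc transgene, in which the immunoglobulin heavy chain enhancer drives Myc in B lineage cells, and wild type samples did not carry it. B cells were purified from bone marrow or spleen on magnetic columns, with beads carrying antibody to B220 or to IgM. The labels do not say which tissue or which bead served for which array. The wild type and premalignant sources are labelled B220+, while the labels of the 13 lymphomas, from independent mice, name no marker. The age in the labels is 4 to 6 weeks for every sample, the lymphomas included. Myc averaged 9.97 ± 0.26 in premalignant cells and 7.04 ± 0.27 in wild type cells (log2, SD, n = 5 and 4), and 9.59 ± 0.59 in lymphomas (SD, n = 13). Over all probe sets, the arrays that correlated least with the rest of their group were wild type replicate 2 (mean r = 0.981), premalignant replicate 1 (0.974) and malignant replicate 1 (0.968). All values below are log2 of the authors' GCRMA intensities. The number of arrays limits their precision. Wild type and premalignant samples are titled biological replicates, but the labels do not say whether each came from its own mouse. For these groups p-values measure the spread between such samples.

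Collagens are built from chains that fold into triple helices. Types I, III and V form fibrils and are made mainly by fibroblasts and related stromal cells, type IV forms the network of basement membranes together with laminins and nidogens, and type VI makes beaded filaments around cells. Sparc binds collagen, fibronectin (Fn1) carries integrin binding sites, and biglycan (Bgn) and decorin (Dcn) are small leucine-rich proteoglycans of the matrix. Igfbp proteins bind insulin-like growth factors, or related ligands, outside cells. Cxcl12, a product of bone marrow stroma, is the chemokine that keeps B cell progenitors in the marrow through the receptor Cxcr4.

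The genes of the type IV chains α1 and α2 lie head to head on chromosome 8, and their transcripts moved together over the lymphomas, so their promoter windows are given first. Each window runs from 250 bases before to 50 bases after the RefSeq start of the gene (GRCm38.p6). The Col4a1 window is chr8:11312777-11313076 on the minus strand and the Col4a2 window is chr8:11312555-11312854 on the plus strand. The annotated starts, 11312826 for Col4a1 and 11312805 for Col4a2, are 21 bases apart, and by them the 2 transcripts overlap at their 5′ ends. The windows share 78 bases, read from opposite strands. For comparison, the windows of the fibrillar chains Col1a2 (chr6:4505368-4505667, plus strand) and Col3a1 (chr1:45311288-45311587, plus strand) are also given. Capitals mark the CCAAT box, written CCAAT or, where it lies on the other strand, ATTGG.
Col4a1: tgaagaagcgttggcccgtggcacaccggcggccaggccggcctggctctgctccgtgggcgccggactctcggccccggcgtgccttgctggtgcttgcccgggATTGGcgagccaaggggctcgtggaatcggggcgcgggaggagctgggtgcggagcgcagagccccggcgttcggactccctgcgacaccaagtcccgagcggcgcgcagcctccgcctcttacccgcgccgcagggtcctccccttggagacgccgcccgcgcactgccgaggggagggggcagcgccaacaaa
Col4a2: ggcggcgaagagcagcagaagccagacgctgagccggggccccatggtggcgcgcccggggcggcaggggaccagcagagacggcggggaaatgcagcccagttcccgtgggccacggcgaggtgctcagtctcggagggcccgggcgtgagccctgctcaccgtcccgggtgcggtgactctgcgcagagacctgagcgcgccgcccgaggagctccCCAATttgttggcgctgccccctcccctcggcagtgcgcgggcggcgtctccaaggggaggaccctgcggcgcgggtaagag
Col1a2: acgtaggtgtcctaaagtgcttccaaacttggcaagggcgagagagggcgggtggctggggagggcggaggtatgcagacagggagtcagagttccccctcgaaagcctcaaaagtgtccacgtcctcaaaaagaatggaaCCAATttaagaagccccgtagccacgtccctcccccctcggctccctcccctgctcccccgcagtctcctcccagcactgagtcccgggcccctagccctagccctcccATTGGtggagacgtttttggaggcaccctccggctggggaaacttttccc
Col3a1: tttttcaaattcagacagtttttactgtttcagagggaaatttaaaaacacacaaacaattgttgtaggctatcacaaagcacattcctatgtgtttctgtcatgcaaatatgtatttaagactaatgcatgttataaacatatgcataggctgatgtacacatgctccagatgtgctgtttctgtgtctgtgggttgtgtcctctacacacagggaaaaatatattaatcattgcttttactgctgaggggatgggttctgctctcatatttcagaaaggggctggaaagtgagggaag

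The paired type IV windows were rich in G and C, at 74% for Col4a1 and 73.7% for Col4a2, against 61% for Col1a2, 37.7% for Col3a1 and a median of 52.7% over all RefSeq windows. Of the 17 genes that were higher in lymphomas than in premalignant cells, 14 had a window. CCAAT was found in 3 of these 14 genes (Col1a2, Col4a1 and Col4a2) and in 37.4% of 32851 windows of all genes. GGGCGG, the GC box, was found in 8 of the 14 genes and in 35.7% of all windows. The 1 match of Col4a1 lies in the bases shared with Col4a2 and is the same site as 1 of the 3 matches of Col4a2. TATAAA was found in 2 of the 14 genes, Col3a1 and Igfbp4, and in 13.6% of all windows. CACGTG, the E box that Myc and Max can bind, was found in none of the 14 genes (0 of 14) and in 7.15% of all windows. Every motif was searched on both strands, none of the 4 motifs contains another, and a match is only a match of letters.

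Most matrix transcripts were at or near the array floor in wild type and premalignant B cells, with Nid1 and, on 3 arrays, Igfbp7 clearly above it, and most of those that were measured at all were high in the lymphomas. In malignant against premalignant samples 17 of the 24 tested genes were higher and 1, Nid1, was lower, where 24.8% of all 6437 genes tested were higher and 17.3% lower (limma, Benjamini-Hochberg adjusted p under 0.05). The median log2 change of the 24 was 2.66, beside 0.09 over all genes tested. Many of these genes passed the filter only through the lymphomas and had to differ, so the count over all 64 genes is the one to read. With no filter 16 of the 64 genes were higher (all of the 17 but Col5a1) and 9 lower, where 13.2% of all 12393 genes were higher and 26.5% lower, and the median change of the 64 was -0.0034 beside -0.06 over all genes. The 8 lower genes other than Nid1 fell by 0.058 to 0.12 on the log2 scale, at levels under 4. Of the 24 tested genes, 15 had every lymphoma above every premalignant array, as 6.28% of all genes tested did. The filter bears on this count too, and it was not made over all 64 genes, so it is a description only.

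Against wild type, 18 of the 24 tested genes were higher in lymphomas and 1, Lamb1, was lower, where 31.8% of all genes tested were higher and 29.7% lower (limma adjusted p under 0.05). 15 of the 24 had every lymphoma above every wild type array, as 18.3% of all genes tested did. The filter bears on both counts, and the second was not made over all 64 genes. With no filter, 17 of the 64 were higher and 22 lower, where 17.1% and 46.8% of all genes were. The comparisons against premalignant and against wild type cells share the 13 lymphomas. The plot of the matrix genes on every array shows the dark wild type and premalignant columns and the varied lymphoma columns.

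**Figure D1:**
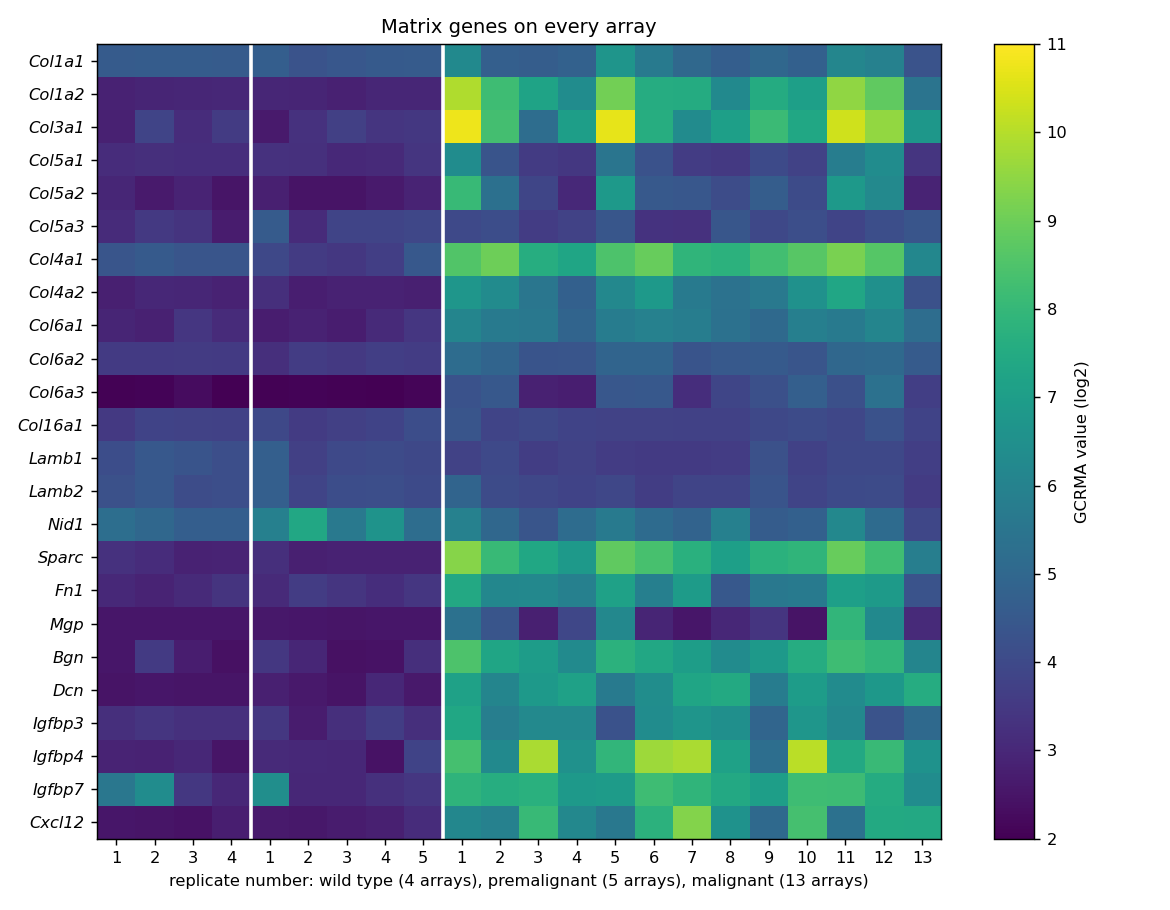
Log2 GCRMA values (colour, 2 to 11) of the 24 tested matrix genes (rows) on each of the 22 arrays (columns, by replicate number), with white lines between the 4 wild type, 5 premalignant and 13 malignant arrays. Col1a2 and Col3a1 lie under 4 on all 9 wild type and premalignant arrays and between 5.20 and 10.78 in lymphomas.

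Markers of other cells went in mixed directions between premalignant cells and lymphomas, and a measure of RNA quality differed as well. Of 12 fibroblast and pericyte markers, 2 passed the filter and both were higher in lymphomas than in premalignant cells, Acta2 (1.98-fold) and Tagln (at least 1.14-fold), and the summed intensity of the list was 112 to 373 in malignant, 100.4 to 131 in premalignant and 106 to 119 in wild type samples. In lymphomas Pdgfrb exceeded log2 4 on 3 arrays and Pdpn on 1, which neither did in premalignant or wild type cells, and the other 8 (Pdgfra, Fap, Prrx1, Twist1, Lepr, Cspg4, Mcam and Meox1) exceeded it on no lymphoma. Of 12 endothelial markers 5 were tested, 3 were higher and 1, Pecam1, was lower, with summed intensities of 149 to 396 in malignant, 157 to 241 in premalignant and 300.1 to 323 in wild type samples, and Cdh5, Tek, Tie1, Emcn and Vwf were not above log2 4 in lymphomas. Both tested adipocyte markers were higher, Fabp4 at least 10.6-fold and Lpl 5.88-fold, and the summed intensity of the 3 markers on the array was 105 to 1084 in malignant, 25.7 to 46.5 in premalignant and 26.2 to 48.3 in wild type samples. Of 11 macrophage markers 9 were tested, 2 were higher and 2 lower, with summed intensities of 1161 to 5791 in malignant, 554 to 2715 in premalignant and 1089 to 3453 in wild type samples. Of the 7 B cell markers on the array 6, all but Pax5, were above log2 4 on every array. All 6 were lower in lymphomas than in premalignant cells, and the summed intensity of the list was 3732 to 9805 in malignant, 17237 to 21960 in premalignant and 24530 to 29856 in wild type samples. The tested osteoblast marker, Alpl, was 2.23-fold higher in lymphomas than in premalignant cells, while Ibsp, Sp7 and Phex were not above log2 4 in any group. Of 2 tested platelet markers 1, Pf4, was higher. Of 2 tested erythroid markers 1, Tfrc, was higher, and the change of Slc4a1, -1.71, did not pass (limma adjusted p = 0.0586). Of the 8 erythroid markers on the array 1 exceeded log2 4 in lymphomas, against 7 in premalignant and 6 in wild type samples. None of 5 neutrophil markers passed, and no T cell or epithelial marker passed the filter (0 of 8 each). The Actb probe sets at the 3′ and 5′ ends of the transcript, whose difference grows with RNA degradation, differed by 1.29 to 2.49 (log2) in malignant, 0.58 to 0.81 in premalignant and 0.64 to 0.86 in wild type samples. The part of these markers and of RNA quality in the matrix result was not tested. In RNA from whole cell preparations, a larger number of matrix-making cells and more matrix RNA per cell cannot be told apart.

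The fibrillar collagens I and III were near the array floor before malignancy and ranged widely after it. Col1a2, the α2 chain of type I collagen, stood at 2.85, 2.94, 2.97 and 2.99 on the wild type arrays and at 2.97, 2.92, 2.84, 2.97 and 2.98 on the premalignant arrays. In the lymphomas its lowest, median and highest values were 5.46, 7.53 and 9.94. Thus every lymphoma lay far above every other array, with no overlap. Col1a2 averaged 7.74 ± 1.33 in lymphomas and 2.94 ± 0.06 in premalignant cells (SD, n = 13 and 5), at least 13.3-fold higher when levels under log2 4 are set to 4, as for every such bound below (log2 change 4.80 ± 0.55 SE, limma adjusted p = 2.27e-06).

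Col3a1, the single chain of type III collagen, read 2.83, 3.86, 3.13 and 3.55 in wild type and 2.65, 3.27, 3.69, 3.39 and 3.45 in premalignant cells. The lymphomas ranged from 5.20 to 10.78 with a median of 7.62, again without overlap. The change over premalignant cells was 4.80 ± 0.74 (SE), at least 17.0-fold (limma adjusted p = 4.736e-05). Among the probe sets used for the tests Col3a1 had the largest spread over lymphomas, an SD of 1.76 and a 47.8-fold range.

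Col1a1, the α1 chain that pairs with Col1a2, was measured by 2 probe sets that disagreed in level. The brighter one, used for the test, read 4.58 to 4.62 in wild type, 4.29 to 4.68 in premalignant and 4.32 to 6.69 in malignant samples, so that the groups overlapped. Its change of 0.78 ± 0.32 (SE) over premalignant cells did not pass (limma adjusted p = 0.0584). The other probe set read 2.74 to 2.78 in wild type, 2.69 to 2.99 in premalignant and 3.93 to 9.30 in malignant samples, with no overlap. Tested on its own it rose by 3.41 (limma adjusted p = 7.954e-04), and the mean of both probe sets rose by 2.09 (limma adjusted p = 0.00254).

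Type V collagen regulates fibril diameter. Its α2 chain Col5a2 averaged 5.00 ± 1.57 in lymphomas and 2.65 ± 0.18 in premalignant cells (SD, n = 13 and 5; limma adjusted p = 0.00764), and its lymphoma values ran from 2.90 over a median of 4.53 to 8.05. The lowest lymphoma stood only just above the highest premalignant array, at 2.89, and below the highest wild type array, at 2.95. Col5a1 was higher by 1.25 (limma adjusted p = 0.0420), with 7 of 13 lymphomas above log2 4 and the groups overlapping. The call for Col5a1 was lost in 11 of 29 alternative settings. Col5a3, the α3 chain, was higher in lymphomas than in wild type cells by 0.79 (limma adjusted p = 0.00318) with both means under log2 4, and its difference from premalignant cells was 0.10 (adjusted p = 0.745). Col16a1, an associate of fibrils, stayed between 3.51 and 4.37 on all arrays and passed in no comparison.

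**Figure D2:**
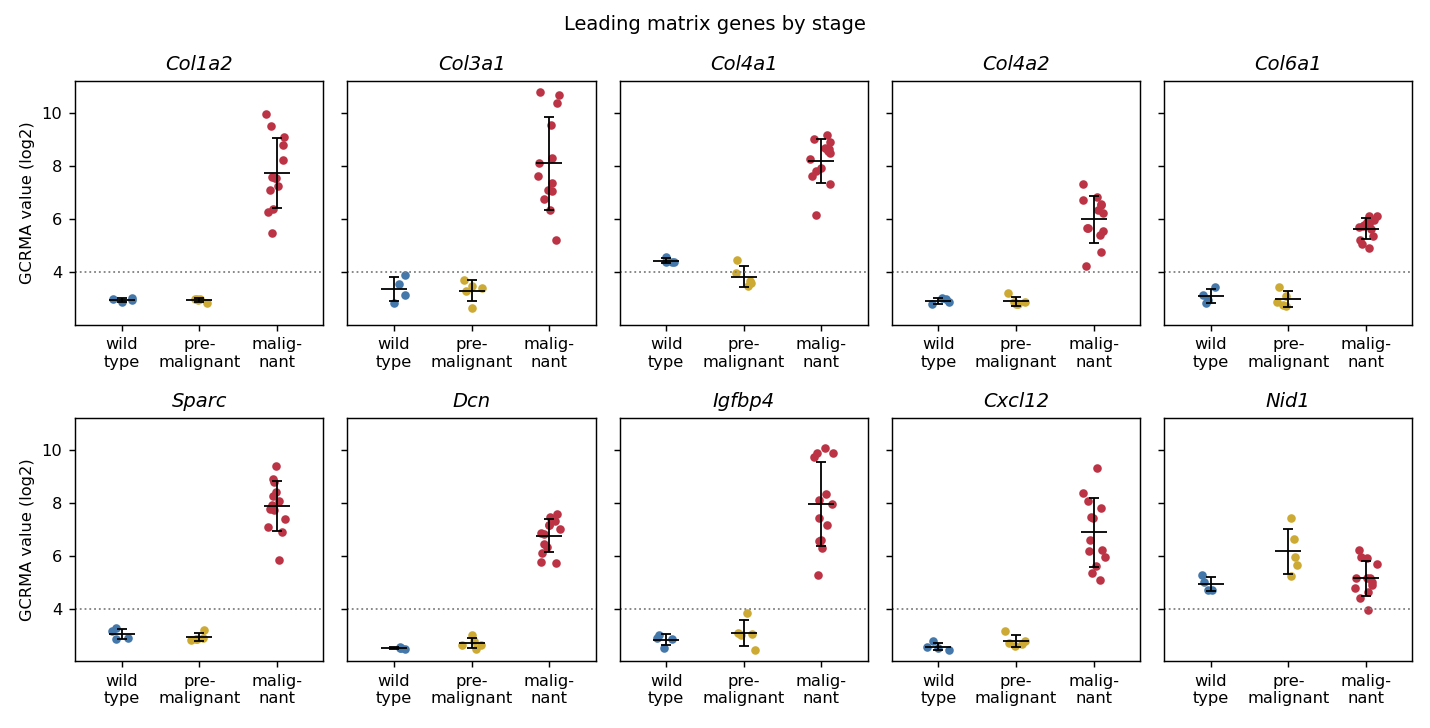
Log2 GCRMA values of 10 matrix genes by stage, 1 point per array, with the mean and SD of each group (4 wild type, 5 premalignant and 13 malignant arrays) and a dotted line at log2 4. For 9 genes the lymphomas lie above both other groups, while Nid1 is highest in premalignant cells.

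Among basement membrane genes, both type IV chains rose and the laminin chains did not. Col4a1 read 4.36, 4.56, 4.37 and 4.38 in wild type and 3.96, 3.57, 3.46, 3.66 and 4.46 in premalignant cells. Its lowest, median and highest lymphoma values were 6.15, 8.49 and 9.17. All 13 lymphomas lay above all other arrays. The change over premalignant cells was 4.37 ± 0.36 (SE), at least 18.2-fold (limma adjusted p = 3.946e-08), and the change over wild type cells was 3.77, or 13.7-fold (limma adjusted p = 1.797e-07). Its other probe set read lower in lymphomas, 6.05 to 7.57, and rose by 2.00 over premalignant cells.

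Col4a2, whose promoter window is shared in part with that of Col4a1, read 2.78 to 3.01 in wild type and 2.77 to 3.20 in premalignant cells, against 4.23 to 7.33 in lymphomas. It was at least 3.94-fold higher in malignant than in premalignant samples (log2 change 3.09 ± 0.37 SE, limma adjusted p = 3.411e-06). The chains α3 to α6 of type IV collagen, which are restricted to particular basement membranes, never exceeded log2 4 (0 of 4 genes).

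Of the 10 laminin chains only the β chains Lamb1 and Lamb2 passed the filter. Lamb1 read 3.51 to 4.25 in lymphomas, 3.71 to 4.73 in premalignant and 4.14 to 4.49 in wild type cells, and was lower in lymphomas than in wild type by 0.52 (limma adjusted p = 0.00237). That call was lost when arrays were centred on the spike controls (change -0.12, adjusted p = 0.722). Its change from premalignant cells, -0.32, did not pass (adjusted p = 0.0858). Lamb2 averaged 3.98 in lymphomas and 4.18 in premalignant cells and passed in no comparison. All 5 α chains stayed under log2 4 on every array, and Lamc1, the γ chain of most laminins, exceeded it on 1 lymphoma.

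Nid1, the nidogen that links laminin to type IV collagen, had a course of its own. It read 5.26, 5.02, 4.70 and 4.70 in wild type cells, 5.93, 7.40, 5.65, 6.61 and 5.22 in premalignant cells, and 3.93 to 6.19 with a median of 5.15 in lymphomas. Premalignant values were spread widely, and the groups overlapped at each step. Nid1 averaged 6.16 ± 0.86 in premalignant and 4.92 ± 0.27 in wild type cells (SD, n = 5 and 4), 2.37-fold higher (limma adjusted p = 0.0343), and that call was lost without any 1 of the wild type replicates (adjusted p 0.0510 to 0.0836) or without premalignant replicate 4 (0.0780). In lymphomas it was 2.03-fold lower than in premalignant cells (log2 change -1.02 ± 0.35 SE, limma adjusted p = 0.0228), a call that was lost without premalignant replicate 2 (adjusted p = 0.106) or 4 (0.0696) and with spike centring (0.0957), and differed from wild type by 0.22 (adjusted p = 0.565).

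All 3 measured type VI chains rose. Col6a1 read 2.84 to 3.43 in wild type and 2.70 to 3.43 in premalignant cells, against 4.90 to 6.11 in lymphomas. It averaged 5.63 ± 0.39 in lymphomas and 2.97 ± 0.30 in premalignant cells (SD, n = 13 and 5), at least 3.09-fold higher (limma adjusted p = 3.292e-09). Col6a2 was at least 1.62-fold higher (log2 change 1.18, adjusted p = 7.896e-06), and Col6a3 rose by 1.97 (adjusted p = 8.653e-05). The Col6a3 call rests on values near the floor: 8 of 13 lymphomas exceeded log2 4, and with all lower values set to 4 the adjusted p was 0.162. The SD of Col6a1 and Col6a2 among lymphomas, 0.39 and 0.31, was close to the median over all genes tested, 0.33, and that of Col6a3 was 0.76.

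Sparc, Dcn and Bgn separated the lymphomas completely from the other stages. Sparc read 3.27, 3.15, 2.86 and 2.89 in wild type and 3.20, 2.81, 2.85, 2.86 and 2.87 in premalignant cells, and its lowest, median and highest lymphoma values were 5.83, 7.89 and 9.36. No lymphoma came within 2 log2 units of any other array. Sparc averaged 7.86 ± 0.94 in lymphomas and 2.92 ± 0.16 in premalignant cells (SD, n = 13 and 5), at least 14.6-fold higher (log2 change 4.95 ± 0.40 SE, limma adjusted p = 2.265e-08).

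Dcn read 2.49, 2.55, 2.50 and 2.50 in wild type and 2.79, 2.61, 2.48, 3.00 and 2.63 in premalignant cells, against a lowest, median and highest of 5.72, 6.86 and 7.56 in lymphomas. The groups did not overlap, and Dcn had the smallest adjusted p of the matrix genes, 1.698e-09 by limma (at least 6.68-fold higher than in premalignant cells). Bgn was at least 9.46-fold higher than in premalignant cells (7.24 ± 0.74 against 2.90 ± 0.46, SD, limma adjusted p = 1.236e-08), and its other 2 probe sets also rose. Fn1 was at least 4.38-fold higher, with lymphoma values of 4.31 to 7.44 (adjusted p = 3.206e-05). Mgp, the matrix Gla protein that inhibits calcification, exceeded log2 4 in 5 of 13 lymphomas only, where its values ran up to 7.92, and its change of 1.63 did not pass (limma adjusted p = 0.0756). Lum and Nid2 never exceeded log2 4.

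Of the Igfbp genes Igfbp3, Igfbp4 and Igfbp7 were measured, and all of them rose. Igfbp4 read 2.91, 2.85, 3.00 and 2.52 in wild type and 3.07, 3.04, 3.02, 2.44 and 3.82 in premalignant cells, against a lowest, median and highest of 5.25, 7.94 and 10.07 in lymphomas. It was at least 15.3-fold higher than in premalignant cells, without overlap (log2 change 4.85 ± 0.67 SE, limma adjusted p = 1.527e-05). Other Igfbp4 probe sets spread even more widely, 1 of them from 3.71 to 9.82 (SD 1.97). Igfbp3 was at least 3.74-fold higher, with lymphoma values of 4.26 to 7.37 (adjusted p = 5.68e-05). Igfbp1, Igfbp2 and Igfbp6 never exceeded log2 4.

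Igfbp7, found in vessel walls and basement membranes, was also high on some arrays from outside the lymphomas. It read 5.58, 6.39, 3.47 and 3.01 in wild type and 6.45, 3.00, 2.99, 3.25 and 3.42 in premalignant cells. Wild type replicates 1 and 2 and premalignant replicate 1 were thus high and the other 6 low. Lymphomas read 6.36 to 8.22 with a median of 7.61, and their lowest value lay just below the highest value of each other group. Igfbp7 was at least 11.5-fold higher in lymphomas than in premalignant cells (limma adjusted p = 2.617e-06) and 7.51-fold higher than in wild type (adjusted p = 3.152e-05).

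Cxcl12 read 2.54, 2.52, 2.42 and 2.76 in wild type and 2.65, 2.57, 2.69, 2.78 and 3.15 in premalignant cells, and its lowest, median and highest lymphoma values were 5.09, 6.58 and 9.31. It was at least 7.33-fold higher in lymphomas than in premalignant cells (log2 change 4.11 ± 0.54 SE, limma adjusted p = 9.704e-06), with no overlap. A further Cxcl12 probe set stayed under log2 4 on all but 3 lymphomas. Its receptor Cxcr4 averaged 8.11 in lymphomas and 8.91 in wild type cells, 1.74-fold lower (limma adjusted p = 0.0124), and its difference from premalignant cells did not pass.

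Before malignancy the matrix genes scarcely moved. Between premalignant and wild type cells 1 of the 24 tested genes was higher, Nid1, and 1 was lower, Col4a1, where 12.7% of all genes tested were higher and 14.1% lower (limma adjusted p under 0.05). With no filter neither call held (0 of 64 genes in each direction by limma, with 2 higher and 1 lower at an unadjusted p under 0.05), where 5.54% of all genes were higher and 6.37% lower. Col4a1 averaged 3.82 ± 0.40 in premalignant and 4.42 ± 0.09 in wild type cells (SD, n = 5 and 4; limma adjusted p = 0.0489), a call that was lost in 16 of 20 alternatives. Its other probe set read 3.75 to 5.25 in premalignant and 3.63 to 4.66 in wild type cells, and the mean of both differed by -0.012 (adjusted p = 0.975). For the fibrillar chains the 95% intervals of the premalignant change were -0.24 to 0.24 (Col1a2) and -0.61 to 0.50 (Col3a1), at levels under log2 4 where a change may not be seen. The plot of changes at the 2 steps sets these intervals side by side.

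**Figure D3:**
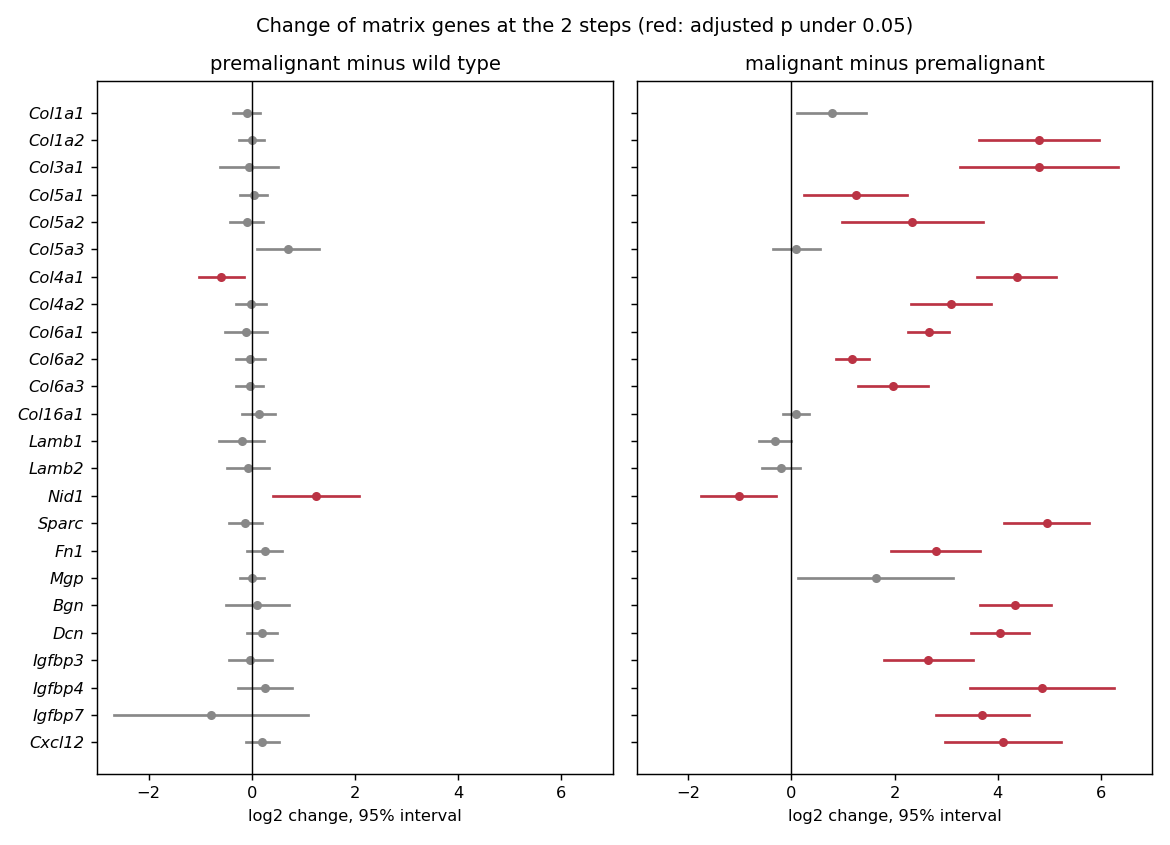
Log2 change with its 95% interval for the 24 tested matrix genes, premalignant minus wild type (left) and malignant minus premalignant (right), in red where the limma adjusted p was under 0.05. On the left 2 genes are red, Col4a1 at -0.59 and Nid1 at 1.24, and on the right 18, from Nid1 at -1.02 to Sparc at 4.95. The panels share the 5 premalignant arrays.

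Spread among the lymphomas was then described. The filter bears on it, since genes that exceeded log2 4 in only some lymphomas passed through those. Over all 64 genes without the filter the median SD was 0.22, beside 0.21 over all 12393 genes, and 21 of the 64 (32.8%) lay above the 90th percentile of all genes (0.55). For the 24 tested genes the median SD over the 13 lymphomas was 0.79, beside 0.33 over all 6437 genes tested, and 15 of them lay above the 90th percentile of those (0.69). In wild type and premalignant cells, where most were at the floor, the median SD was 0.15 and 0.22, beside 0.26 and 0.28 over all genes. After Col3a1 the widest spreads were those of Mgp (SD 1.74), Igfbp4 (1.58), Col5a2 (1.57), Col1a2 (1.33) and Cxcl12 (1.29). Of the 17 genes that were higher than in premalignant cells, lymphoma 1 had the highest value for 9 and lymphoma 13 the lowest for 9. Lymphoma 13 nevertheless had the highest Dcn, at 7.56.

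To see which matrix genes rose and fell together, 20 pairs were correlated over the 13 lymphomas (Pearson and Spearman, 100000 permutations, two-sided, Benjamini-Hochberg over the 20). Most were pairs of matrix genes chosen for known assembly or shared source. The 20 also held pairs of a matrix gene with a marker of other cells or with the Actb 3′ to 5′ difference, none of which passed. Pearson's r passed for 9 pairs, each with r of 0.673 or more. Of all pairs of tested genes above log2 4 on at least 4 lymphomas, not matched for spread, 1.74% reached this value. The points share array, scaling and RNA quality, and the correlations of Col1a1 and Sparc with the Actb 3′ to 5′ difference were 0.44 and 0.20 (permutation adjusted p = 0.209 and 0.576).

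Chains of the same collagen type moved together for types IV, V and I, and the 1 listed pair of type VI did not pass. Col4a1 and Col4a2, the divergent pair printed above, had r = 0.947 and rho = 0.918 (n = 13, permutation adjusted p = 2e-04 and 5e-04), and r = 0.901 without the 2 lymphomas farthest from the median of Col4a1. The raw p of this r, 1e-05, is the smallest that the permutations can give. Col5a1 and Col5a2 had r = 0.934 and rho = 0.945 (adjusted p = 3e-04 and 2e-04), and r = 0.951 without the 2 farthest. Col1a1 and Col1a2 had r = 0.862 and rho = 0.846 (adjusted p = 6e-04 and 0.00285), and r = 0.827 without the 2 farthest. With the other probe set of Col1a1, r with Col1a2 was 0.980. Col6a1 and Col6a2 had r = 0.591 and rho = 0.511 and did not pass (permutation adjusted p = 0.0643 and 0.170). The r of this pair passed without lymphoma 7 (r = 0.687, permutation adjusted p = 0.0324) or without lymphoma 10 (r = 0.696, permutation adjusted p = 0.0294).

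Across types, Col1a1 went with Col3a1 (r = 0.861, rho = 0.775, adjusted p = 0.00107 and 0.0093), with Sparc (r = 0.849, rho = 0.841, adjusted p = 6e-04 and 0.00285) and with Fn1 (r = 0.779, rho = 0.764, adjusted p = 0.00511 and 0.0094). Without the 2 farthest lymphomas these r were 0.756, 0.811 and 0.760. Col4a1 went with Sparc (r = 0.872, rho = 0.808, adjusted p = 6e-04 and 0.00592), with r = 0.681 and an adjusted p of 0.0633 without lymphomas 13 and 4. Igfbp7 with Col4a1 (r = 0.733, rho = 0.676, adjusted p = 0.00982 and 0.0336) and Mgp with Bgn (r = 0.673, rho = 0.478, adjusted p = 0.0278 and 0.204) lost their calls without the 2 farthest lymphomas, with r = 0.353 and 0.528 (permutation p = 0.285 and 0.099). Leaving out lymphoma 13 alone gave r = 0.535 for Igfbp7 with Col4a1 (permutation adjusted p = 0.149), and leaving out lymphoma 11 or 12 alone gave r = 0.598 and 0.641 for Mgp with Bgn (0.0847 and 0.0529).

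Other listed pairs did not pass. Bgn and Dcn, proteoglycans of 1 family, had r = -0.380 and rho = -0.407 (permutation adjusted p = 0.263 and 0.259). Dcn and Col1a1 had r = -0.456 (rho = -0.462), and Cxcl12 and Col1a1 had r = -0.345 (rho = -0.341), and neither passed (permutation adjusted p = 0.196 and 0.310). With the other probe set of Col1a1, Dcn had r = -0.500 and rho = -0.621 (unadjusted permutation p = 0.0827 and 0.0262). Cxcl12 had r = -0.479 and rho = -0.495 with it (unadjusted permutation p = 0.0976 and 0.0891). Igfbp4 with Col1a1 had r = 0.149 (rho = 0.148), and Col4a1 with Nid1 had r = 0.585 (rho = 0.390; permutation adjusted p = 0.656 and 0.0643). With markers of other cells, Col4a1 had r = -0.096 with the endothelial Pecam1 (rho = 0.060), Sparc had r = 0.301 with the platelet gene Pf4 (rho = 0.071), and Fn1 had r = 0.423 with the macrophage receptor Csf1r (rho = 0.363), none of which passed (permutation adjusted p = 0.745, 0.375 and 0.215). A further 6 listed pairs were not computed because a gene exceeded log2 4 on fewer than 4 lymphomas, among them Col1a1 with Pdgfrb and Col4a1 with Cdh5.

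**Figure D4:**
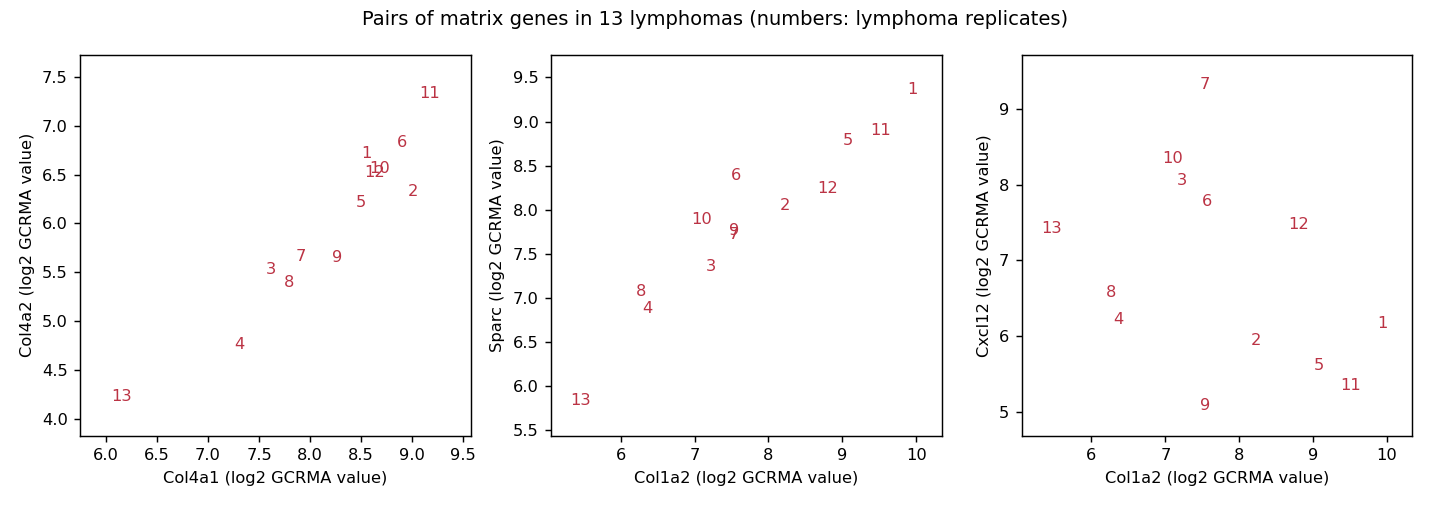
Log2 GCRMA values of 3 pairs of matrix genes in the 13 lymphomas, each printed as its replicate number. Col4a2 rises with Col4a1 (r = 0.947) and Sparc with Col1a2 (r = 0.947), while Cxcl12 does not rise with Col1a2.

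All 231 pairs of the 22 matrix genes above log2 4 on at least 4 lymphomas were then computed, a step added after the data had been seen. The median r was 0.481, beside 0.0094 over all pairs of the 6063 tested genes above log2 4 on at least 4 lymphomas. Of the 231 pairs 68 passed (29.4%, permutation adjusted p under 0.05 over the 231), all with r of 0.664 or more, a value that 1.91% of all gene pairs reached. The pairs of all genes were not matched for spread over the lymphomas. The median SD was 0.79 for the 24 tested matrix genes and 0.33 over all genes tested. The 10 pairs among the fibrillar chains Col1a1, Col1a2, Col3a1, Col5a1 and Col5a2 had a median r of 0.889, and 10 of 10 passed. The highest r was 0.966, for Col1a2 with Col5a2 (rho = 0.951, adjusted p = 3.85e-04). Fibrillar chains with Sparc, Bgn and Fn1 had a median r of 0.817 (14 of 15 passed), and with the type IV chains 0.683 (6 of 10 passed). With the type VI chains their median r was 0.639 (6 of 15 passed), and among the type VI chains it was 0.591 (1 of 3 passed).

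No pair of Cxcl12, Igfbp4 or Dcn with a fibrillar chain passed at this size. Cxcl12 had r = 0.780 with Igfbp4 (permutation adjusted p = 0.0110) and 0.573 with Dcn (0.0916). The fibrillar chains had a median r of -0.288 with Cxcl12 and Igfbp4 (0 of 10 passed) and -0.456 with Dcn (0 of 5 passed). The lowest r of all pairs was -0.622, for Col3a1 with Cxcl12 (rho = -0.648, permutation adjusted p = 0.0653). The lymphomas with the highest Cxcl12 were 7, 10 and 3, at 9.31, 8.35 and 8.05, and those with the highest Col3a1 were 1, 5 and 11, at 10.78, 10.66 and 10.35. Col5a3, at levels close to log2 4, had r = -0.062 with Col1a2.

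**Figure D5:**
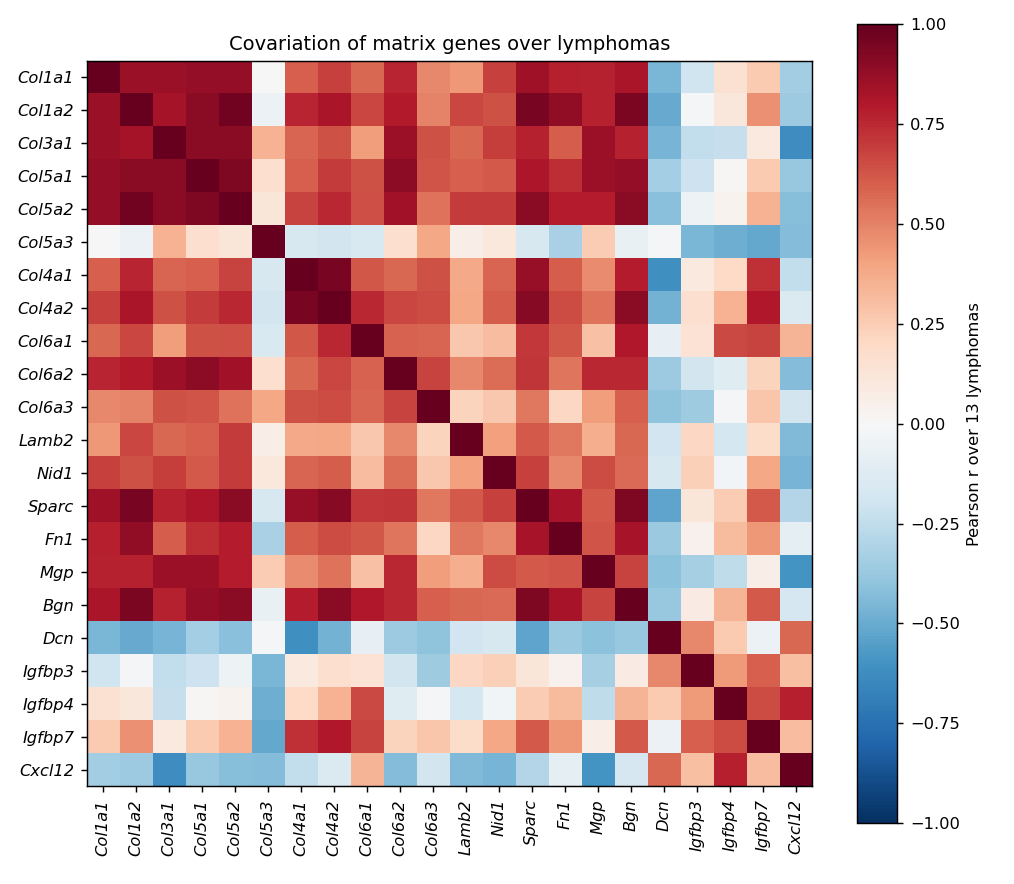
Pearson r over the 13 lymphomas (colour, -1 to 1) for every pair of 22 matrix genes above log2 4 on at least 4 lymphomas. The fibrillar chains, Sparc and Bgn form a red block, and Dcn and Cxcl12 are blue against the fibrillar chains, as with Col3a1 and Cxcl12 at -0.622.

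Outside the list, the tested genes most like the mean of Col1a1, Col1a2 and Col3a1 over the 13 lymphomas were Ppt1 (r = 0.897), Inpp5a (0.859), Igf2r (0.845), Acadvl (0.844), Anxa7 (0.843), Stat5b (0.839), Pmp22 (0.835), Iffo1 (0.832), Kat6b (0.829) and Cript (0.827), given as a description of these arrays. Of these Pmp22 was higher in lymphomas than in premalignant cells, by 1.24 (limma adjusted p = 0.00298). Ppt1 and Cript were lower, by -0.64 and -0.74 (limma adjusted p = 0.00728 and 0.00181), and the other 7 did not pass.

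The machinery that makes and remodels matrix was read from a list of 75 genes, of which 66 were on the array and 26 passed the filter. In lymphomas against premalignant cells 9 of the 26 were higher and 1 lower, beside 24.8% and 17.3% of all genes tested, with a median log2 change of 0.17 beside 0.09. Against wild type 9 were higher and 6 lower, beside 31.8% and 29.7% of all genes tested, shares not far from the list's own. The filter bears on these counts too, and they were not made over all 66 genes. Of the higher genes, Mmp14, Postn, Serpinh1, P4ha1 and Pcolce had means under log2 4 in both other groups. Of 9 tested collagen processing genes 5 were higher than in premalignant cells: the collagen chaperone Serpinh1 (at least 2.48-fold), the prolyl 3-hydroxylation cofactor Crtap (1.95-fold), the prolyl 4-hydroxylase subunits P4ha1 (at least 1.38-fold) and P4hb (1.44-fold), and the procollagen C-proteinase enhancer Pcolce (at least 1.56-fold). Between premalignant and wild type cells Crtap was higher (1.94-fold, limma adjusted p = 0.0202) and Mia3, which helps export procollagen, was lower (1.90-fold, adjusted p = 7.951e-04). Mia3 (1.72-fold) and the prolyl isomerase Ppib (1.35-fold) were lower in lymphomas than in wild type cells.

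The membrane collagenase Mmp14 read 4.92 to 8.44 in lymphomas and 2.65 to 3.51 in premalignant cells, at least 5.04-fold higher and without overlap. Its partner Timp2, a metalloproteinase inhibitor, read 5.79 to 7.50 in lymphomas and 4.14 to 4.88 in premalignant cells, 4.10-fold higher. Periostin (Postn, at least 1.65-fold) and perlecan (Hspg2, 1.76-fold) were higher as well. Of 11 tested matrix receptors none was higher by limma (0 of 11, and 0 at an unadjusted p under 0.05), and 1, the syndecan Sdc4, was lower (2.17-fold). Against wild type cells Itgav (1.60-fold), Dag1 (1.69-fold), Sdc4 (2.74-fold) and Cxcr4 were lower.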

How the data were processed

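Transcript levels were read from Affymetrix MOE430A arrays of 4 wild type, 5 premalignant and 13 malignant samples, grouped by their labels. The authors deposited intensities made with GCRMA, per the submitters' processing notes, which corrects background from probe sequence, normalises arrays and summarises probe sets. The sources used here do not give its version, nor whether the arrays were processed together. From these, log2 was taken. Probe sets were named from the platform annotation of the array, where 691 carried several symbols and 1555 none, and a further 64 were controls. Symbols were checked through RefSeq gene IDs, by which all 109 member probe sets matched.

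Probe sets were kept if they exceeded log2 4 on at least 4 of 22 arrays. Each gene was then read from its kept probe set with the highest mean, and genes with none were not tested. The filter, like the lists, members, pairs and tests, was chosen with earlier results of these data known. Each comparison was fitted with limma 3.58.1 in R 4.3.3 on its 2 groups alone (lmFit, eBayes), two-sided, with Benjamini-Hochberg adjustment over all 6437 genes tested and a threshold of 0.05. Group means under log2 4 were set to 4 for folds, which are then lower bounds, and no fold is given where both lie below. Correlations used 100000 permutations. Values in every array or by range are given for genes that passed in a comparison, for the 10 with the largest SD among lymphomas and for their paired subunits, for partner genes that passed, and for the 10 outside genes closest to the mean of Col1a1, Col1a2 and Col3a1. Promoter windows came from RefSeq.

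On simulated data of 6437 genes with 200 changed, 4-fold changes were recovered in 97%, 97% and 99% of cases (premalignant against wild type, malignant against premalignant, malignant against wild type) and 2-fold changes in 68%, 84% and 74%. False calls made 5.17%, 5.24% and 6.99% of calls when groups shared 1 spread, and 7.39%, 12.9% and 10.9% when each kept its own. The highest correlation between 2 arrays was 0.990. The labels do not say that the replicate numbers pair samples. Deviations of same-numbered samples correlated between -0.113 and 0.210, and 1 of the 4 premalignant and wild type pairs was negative. Differently numbered samples were not compared in this way, so these values cannot exclude pairing. Alternatives covered the filter, probe set choice, floor, scaling, joint fit, array weights, replicate block and leaving out each array.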

Additional observations from a re-analysis of the deposited data

Results flagged for a closer look

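Within the 24 tested genes, 48 groups of 4 to 10 arrays (wild type or premalignant) were screened for an array standing apart by Dixon's criterion at 95%, and 6 were marked, where chance gives about 1 in 20. Igfbp7 in premalignant replicate 1, at 6.45 against 3.42 for the nearest other array, was the only one of them with a clear level. The other 5 lay at or near the array floor. Premalignant replicate 1 was highest for Col4a2 (3.20, nearest 2.85), Mgp (2.59, nearest 2.54) and Sparc (3.20, nearest 2.87). Wild type replicate 2 was highest for Col4a1 (4.56, nearest 4.38) and Igfbp3 (3.38, nearest 3.25). These are the arrays left out together in the added alternative below.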

How the results depend on the processing

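No call named in the text changed direction under any alternative: 1533 of the recomputed values kept their side of the threshold, 64 lost the call and 19 gained it. Direction was compared only where a call was made. Among values without a call some changed sign, as the Lamb2 change against wild type, which ran from -0.35 to 0.13 over the alternatives. In malignant samples the number of higher genes moved by less than 1.5 times under every alternative (16 to 18 against premalignant and 17 to 18 against wild type when leaving out 1 array). The few lower calls were less stable: against premalignant cells there were 9 with no filter, 0 with spike centring and 0 with the replicate block, and 0 to 2 when leaving out 1 array, while against wild type there were 22 with no filter, 0 with a filter at log2 5, 0 with spike centring and 0 with the replicate block, and 1 to 2 when leaving out 1 array. The Lamb1 call against wild type had an adjusted p of 0.722 with spike centring and 0.0567 with the block. The replicate numbers share no source in the labels, and the block is given for completeness. Between premalignant and wild type cells, the higher count was 0 with no filter, with values under log2 4 set to 4 and without wild type replicate 2 and premalignant replicate 1 (added after seeing the data), and 0 to 2 when leaving out 1 array. The lower count there was 0 with no filter, the mean over probe sets, each probe set alone, the floor at 4, median or spike centring, 1 fit over all groups and without those 2 arrays, and 0 to 1 when leaving out 1 array. Spike centring moved the median of all genes to 0.20, 0.22 and 0.43 (premalignant minus wild type, malignant minus premalignant, malignant minus wild type), from -0.05, 0.09 and 0.04. With the floor at 4, Col5a1 (limma adjusted p = 0.210 against premalignant, 0.218 against wild type), Col5a2 (0.124 and 0.132) and Col6a3 (0.162 and 0.175) lost both calls. Col5a3 lost its call against wild type (limma adjusted p = 0.295). At that setting 14 of the 24 genes were higher in lymphomas in either comparison. Over the lymphomas 8 to 11 of the 20 listed pairs passed when leaving out 1 array. The causes were not tested. Signal close to the array floor limits what can be said of most matrix genes outside the lymphomas.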

Other observations

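A further 7 matrix genes exceeded log2 4 on 1 to 3 arrays and were not tested. Fbln2, a matrix fibulin, read 6.64, 4.66 and 4.13 in lymphomas 1, 11 and 5 and 2.09 to 3.20 in the other 10, and these are the lymphomas with the 3 highest Col3a1 values. Igfbp5 reached 6.71 in lymphoma 7, the lymphoma with the highest Cxcl12, and stayed at or below 3.38 in the other 12 by the same probe set. Col14a1 also had its highest value, 4.87, in lymphoma 7. Col8a1 reached 4.28 in lymphoma 5, Timp3 4.13 in lymphoma 11 and Lamc1 4.17 in lymphoma 1. Col9a3 exceeded log2 4 on wild type replicate 2 (4.18) and premalignant replicate 1 (4.38) and on no lymphoma.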
